A study of Mus musculus with 9 samples.

Results

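Liver RNA of mice that lack IRF4 in skeletal muscle and were made to overexpress FSTL1 in muscle (F4MKO+FSTL1) was compared with liver RNA of mice with the same muscle deletion and no added FSTL1 (F4MKO). The comparison covers the genes with at least 10 reads in at least 3 of these 6 libraries. These were 14173 of the 24008 genes in the deposited count table, and the 6 libraries were 3 per group of 9 in all. The remaining 3 libraries, from mice labelled WT, entered the fit only to estimate the spread, and their values are given as a reference for some genes. The study names the controls of its liver RNA comparison Flox mice, so WT is used here as the label only. All of the mice were fed a NASH diet, which is rich in fat, carbohydrate and cholesterol and came with sugar water. The study's design gives 24 weeks of this diet and its section on the virus gives 12 weeks. FSTL1 was delivered by an adeno-associated virus of serotype 8 injected into the gastrocnemius, with the muscle creatine kinase promoter in front of a Flag-tagged full-length FSTL1. The study's methods give the F4MKO and control mice a virus with GFP, although the labels name no vector for either group. Livers were taken 4 weeks after the injection. The promoter and the deletion are both specific to muscle, and vector or transgene in the liver was not measured here. The reporting form of the study gives male C57BL/6J mice aged 8 weeks, without tying that age to a stage of this experiment. Fasting and the hour of collection are not given for these libraries in the sources used here. The labels number the replicates of a group without tying them to litters or batches, so p-values measure the spread between these samples.

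FSTL1 is a secreted glycoprotein of the follistatin and SPARC family that is made by muscle, fibroblasts and other mesenchymal cells. It has been reported to bind DIP2A, the CD14 and TLR4 complex and receptors of the BMP and TGF-beta family, and in muscle its gene is a target of the transcription factor IRF4. In a NASH liver, fat-laden hepatocytes are injured, macrophages gather around dying cells, stellate cells lay down collagen, bile duct-like cells expand and surviving hepatocytes divide. Male mouse hepatocytes also carry a set of genes, including those of the major urinary proteins, that depend on pulses of growth hormone acting through STAT5.

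The question put to these libraries was how added muscle FSTL1 changes the liver of mice without muscle IRF4. Between 20656976 and 24322984 reads per library of the 6 were assigned to genes. F4MKO replicates 1, 2 and 3 had 24205726, 23265774 and 24322984 reads, with TMM factors of 1.17, 1.03 and 1.03. F4MKO+FSTL1 replicates 1, 2 and 3 had 22891868, 21803213 and 20656976 reads, with factors of 0.94, 0.96 and 0.93. Values given below as reads, and the count filter, are not scaled for this difference. Mitochondrial transcripts took 5.58% to 7.02% of the reads. The liver label was borne out by its defining genes, with 48848, 75335 and 69893 CPM (read counts scaled to a common library size of 1e6) of Alb, the serum albumin gene, in F4MKO replicates 1, 2 and 3 and 68409.8, 51083 and 63508 CPM in F4MKO+FSTL1 replicates 1, 2 and 3. Values of the 3 libraries of a group are given in this order throughout, and CPM are scaled by edgeR's TMM factors and are not divided by gene length. Markers of skeletal muscle and pancreas were at or near the count limit, and those of fat cells are described further on. Adipoq had at most 2 reads per library, Ckm, Myh4 and Prss2 had 0 reads in each of the 6 libraries, and 1 of 13 muscle markers and 1 of 12 pancreas markers had enough reads to be tested. The RNA-level targets of the design were also read in liver. Irf4 had 120, 128 and 130 reads in F4MKO and 10, 92 and 116 reads in F4MKO+FSTL1 livers, so replicate 1 of the latter stood apart, and the gene did not pass the test (log2 fold change -0.44, SE 0.53, edgeR adjusted p = 0.584). Fstl1 had 456, 234 and 284 reads in F4MKO and 114, 67 and 83 reads in F4MKO+FSTL1 livers. The groups did not overlap, and liver Fstl1 was lower in the group with the muscle virus (log2 fold change -1.53, SE 0.22, edgeR adjusted p = 0.00169). By QPCR the study found liver Fstl1 mRNA unchanged after the virus, unlike the fall in these libraries. Neither gene checks the labels in liver, since both changes were made in muscle.

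The response was broad and mostly downward. A gene was called when its fold change exceeded 1.5 and its adjusted p was under 0.05. These p-values came from the quasi-likelihood test of edgeR and were adjusted over the 14173 genes by the method of Benjamini and Hochberg. Of these genes 2075 were called (14.6%), of which 454 were higher in F4MKO+FSTL1 livers (3.20% of the genes tested) and 1621 were lower (11.4%). Counts of called members in the gene lists below are to be read against these shares. The median log2 fold change over all tested genes was 0.01. Fold changes are relative to the TMM scaling, which centres the table, and a change shared by all genes would not be seen. Large falls also outnumbered large rises, with 1057 of more than 2-fold and 236 of more than 4-fold, against 183 and 46 rises. Part of this imbalance comes with the count filter. Of the genes called lower, 237 had under 10 reads in every F4MKO+FSTL1 library. They passed the filter through the F4MKO libraries alone, which required them to be lower. The mirror case held for 11 of the genes called higher. Among protein-coding genes 318 were higher and 1511 lower, whereas among 596 long non-coding RNA genes tested 70 were higher and 30 lower. Groups did not overlap in CPM for 2039 of the called genes and for 39.3% of all tested genes. For 2022 of the 2075 called genes the mean CPM of the WT livers lay between the F4MKO and F4MKO+FSTL1 means. The fold changes compare F4MKO+FSTL1 with F4MKO, and neither group with WT. The count rested in part on 2 libraries, since 1164 genes were called without F4MKO replicate 1 and 1331 without F4MKO+FSTL1 replicate 2, and 978 were called in each of the 6 fits that left out 1 library. In RNA from whole tissue, fewer cells of a type and less RNA per cell cannot be told apart, and this holds for every result below. A bare value in parentheses after a gene symbol is its log2 fold change, F4MKO+FSTL1 over F4MKO.

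**Figure D1:**
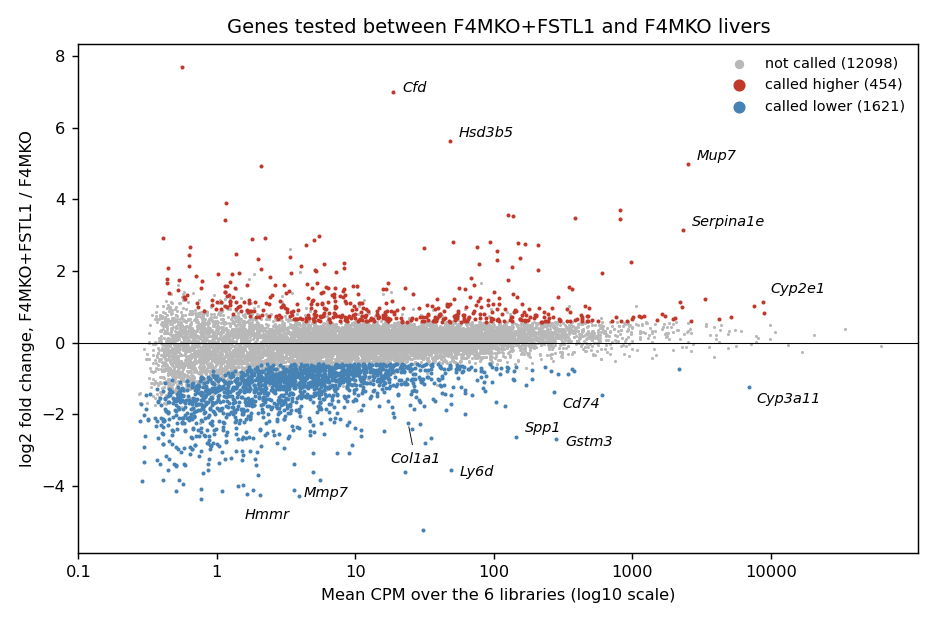
Mean CPM over the 6 libraries (log10 axis) against the log2 fold change between F4MKO+FSTL1 and F4MKO livers, with 1 point per tested gene. Red points are the 454 genes called higher and blue points the 1621 called lower, and the falls form the wider cloud at low and middle levels.

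Ranked by fold change among called genes with groups apart, more than 3 reads in every library and a mean of at least 5 CPM in the higher group, 8 of the 12 leading rises were major urinary protein (Mup) genes. These encode small carriers of pheromones that male hepatocytes secrete in large amounts. Mup7 (chr4:60066469-60070475 on the reverse strand, GRCm38) had 191, 6.78 and 259 CPM in F4MKO and 3630.3, 5782 and 5218 CPM in F4MKO+FSTL1 livers. F4MKO replicate 2 was far below its own group, and the lowest F4MKO+FSTL1 liver was still above the highest F4MKO liver (log2 fold change 5.0, SE 0.95, edgeR adjusted p = 0.0049). In the WT livers Mup7 had 1265, 651 and 1883 CPM, above the F4MKO and below the F4MKO+FSTL1 values. Mup17 had 173, 11.5 and 162 CPM against 1183, 1484 and 1863 CPM, a log2 fold change of 3.71. Mup11 had 133, 20.01 and 259 CPM against 825, 1017 and 2639.5 CPM, a log2 fold change of 3.44. Mup1, Mup12, Mup15, Mup2 and Mup19 rose by log2 fold changes of 3.55, 3.55, 3.50, 2.81 and 2.74, and in each of them F4MKO replicate 2 was the lowest of the 6 libraries. The call of Mup15 was lost without F4MKO replicate 3, at a log2 fold change of 3.30 and an edgeR adjusted p of 0.058.

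Of the 19 Mup genes tested, 16 were called higher (3.20% over all genes) and none lower, with a median log2 fold change of 2.68. The other 3 were Mup20 (0.49, edgeR adjusted p = 0.197), Mup13 (1.68, adjusted p = 0.11) and Mup5 (2.61, adjusted p = 0.0669). Mup20, which encodes the male pheromone darcin, was thus the tested member with the smallest difference, at 429, 359.6 and 651 CPM in F4MKO and 570.3, 604 and 847 CPM in F4MKO+FSTL1 livers. Mup4 and Mup6 had too few reads. The Mup genes are near copies of each other. The share of 100-base stretches of a gene's longest transcript that also occur in other genes was 81.6% for Mup7, 59.4% for Mup17 and the whole transcript for Mup19, so reads could have been split or dropped in counting, and single members are uncertain. Summed over the 19 genes the family had 1861, 724 and 2464 CPM in F4MKO livers and 9502, 13355 and 16991 CPM in F4MKO+FSTL1 livers. Every F4MKO+FSTL1 liver was above every F4MKO liver in this sum, with or without F4MKO replicate 2.

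Other genes that are higher in male than in female mouse liver moved the same way. Of 19 tested genes on a list of male-biased genes, 11 were called higher (3.20% over all genes) and none lower, with a median log2 fold change of 1.04. Hsd3b5, a male-specific 3-ketosteroid reductase, had 132, 3 and 15 reads in F4MKO and 1623, 3235 and 973 reads in F4MKO+FSTL1 livers. The groups were far apart, but the size of the log2 fold change (5.64, SE 0.84, edgeR adjusted p = 0.0018) ran from 5.07 to 7.97 when single libraries were left out. Serpina1e, an antitrypsin gene, had 305, 142 and 957 CPM against 1879.9, 4861 and 5731 CPM (log2 fold change 3.15, SE 0.64, edgeR adjusted p = 0.00628). Cyp7b1, which hydroxylates oxysterols and androgens, had 70.5, 19.1 and 82.6 CPM against 153, 248 and 183 CPM (log2 fold change 1.76, SE 0.41, edgeR adjusted p = 0.012), and it was not called without F4MKO+FSTL1 replicate 2 (adjusted p = 0.052). Slco1a1, a transporter of organic anions and steroid conjugates, had 117, 28.5 and 102 CPM against 339.8, 393 and 272 CPM (log2 fold change 2.02, SE 0.39, edgeR adjusted p = 0.00494). In all 4 genes F4MKO replicate 2 was the lowest library, as it was for the Mup genes. Ces4a, a carboxylesterase, rose by 2.48 on the log2 scale, and Susd4, a complement regulator, by 2.07. Susd4 was called in 2 of the 6 fits that left out 1 library, losing its call without F4MKO replicates 1 (1.90) or 2 (1.78) or F4MKO+FSTL1 replicates 2 (2.17) or 3 (1.79). Elovl3 and Cyp4a12a, both male-biased fatty acid enzymes, had log2 fold changes of 0.56 and 0.54 and did not pass (edgeR adjusted p = 0.135 and 0.092).

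Female-biased genes were called only in the downward direction. Of 20 listed, 11 were tested, 2 of them with fewer than 10 reads in every library of 1 group. Of the 11, 7 were called lower (11.4% over all genes) and none higher, with a median log2 fold change of -1.15. Cyp2a4, a steroid hydroxylase, had 37.9, 80.8 and 6.99 CPM in F4MKO and 2.19, 3.03 and 5.12 CPM in F4MKO+FSTL1 livers (log2 fold change -3.61, SE 0.80, edgeR adjusted p = 0.0097). The groups did not overlap, and F4MKO replicate 2 was the highest library. Cyp3a16 had 1.1, 2.18 and 1.8 CPM against 0.373, 0.48 and 0.575 CPM (log2 fold change -1.82, SE 0.36, edgeR adjusted p = 0.00556). Cyp3a41b fell (-2.05), but 88.2% of its 100-base stretches are shared with Cyp3a41a. Prom1, which ductular cells also express, was lower in every F4MKO+FSTL1 liver, at 3.64, 2.09 and 1.72 CPM against 0.84, 0.528 and 0.627 CPM (log2 fold change -1.90, SE 0.38, edgeR adjusted p = 0.00613). Cyp2b9, a female-biased P450, had 13, 92 and 3 reads in F4MKO and 2, 9 and 9 reads in F4MKO+FSTL1 livers and was not tested, and F4MKO replicate 2 again stood apart. Xist had at most 2 reads and Ddx3y at least 863 reads in each of the 6 libraries, as in male tissue.

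**Figure D2:**
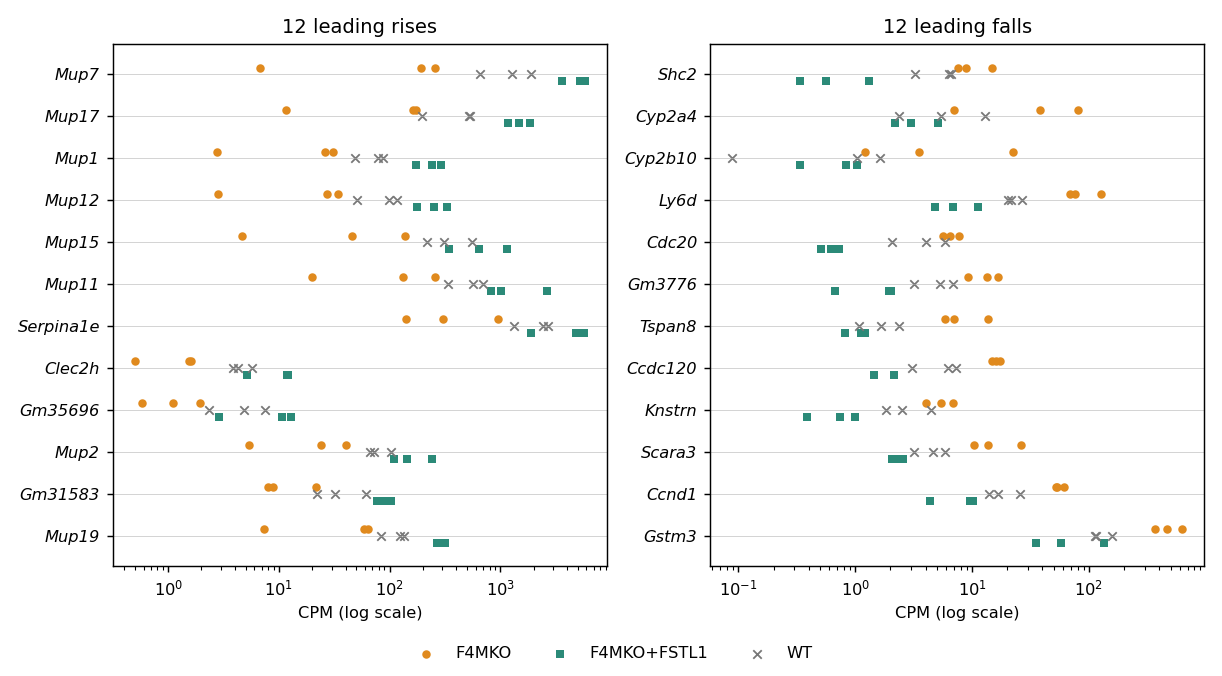
CPM (log axis) of the 12 largest rises and 12 largest falls that met the naming rule, with 1 point per liver for F4MKO (circles), F4MKO+FSTL1 (squares) and WT (crosses). The circles and squares do not overlap for any of the 24 genes, and the leftmost circle of each Mup gene is F4MKO replicate 2, while CPM are not comparable between genes of different length.

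The growth hormone axis itself was called about as often as all genes. Of 18 tested, 2 were called higher and 1 lower, with a median log2 fold change of -0.11. Over all genes 14.6% were called in either direction (3.20% higher, 11.4% lower). The growth hormone receptor Ghr had 286, 293 and 330.3 CPM in F4MKO and 472, 513 and 423 CPM in F4MKO+FSTL1 livers (log2 fold change 0.63, SE 0.11, edgeR adjusted p = 0.00398). Igfals, the acid-labile subunit that carries circulating IGF1, had 48.4, 52.7 and 42.8 CPM against 101, 127 and 72.6 CPM (log2 fold change 1.07, SE 0.27, edgeR adjusted p = 0.0181). Both rises passed, and both calls were lost without F4MKO replicate 1 or without F4MKO+FSTL1 replicate 2, where Ghr stood at 0.58 and 0.55 and Igfals at 1.06 and 0.85 on the log2 scale, and that of Igfals also without F4MKO replicate 3, at 0.98. Igfbp1, an IGF-binding protein that insulin represses, fell from 134, 121 and 119 CPM to 54.5, 30.0 and 62.3 CPM (log2 fold change -1.35, SE 0.26, edgeR adjusted p = 0.00494). Igf1 (0.35, edgeR adjusted p = 0.0667) and Socs2, a STAT5 target (-1.05, adjusted p = 0.146), did not pass.

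The cytochrome P450 genes of families 1 to 3, which oxidise drugs, steroids and fatty acids, split into rises and falls. Of 43 tested, 11 were called higher and 10 lower, against 3.20% and 11.4% over all genes. The number called lower was 5 without F4MKO replicate 2 and 6 without F4MKO+FSTL1 replicate 2. Cyp2e1, the ethanol-inducible P450 of pericentral hepatocytes, gained more CPM than any other called gene, with 4446, 5090.2 and 7029 CPM in F4MKO and 13498, 11492 and 11344 CPM in F4MKO+FSTL1 livers (log2 fold change 1.13, SE 0.18, edgeR adjusted p = 0.00206). Cyp3a11, a main drug-metabolising P450, lost the most, with 7061, 11008 and 11412 CPM against 4130.4, 3534 and 4817 CPM (log2 fold change -1.24, SE 0.20, edgeR adjusted p = 0.00232). For Cyp2e1 the gap between the 2 groups was wider than the spread within either. For Cyp3a11 the groups did not overlap, but the gap was narrower than the spread within F4MKO. In the Cyp2c cluster, Cyp2c54 rose from 28, 26.7 and 36 CPM to 224, 149 and 166 CPM (log2 fold change 2.57, SE 0.18, edgeR adjusted p = 0.000243), and this was the smallest adjusted p of the whole table. Cyp2c50 and Cyp2c37 rose by 1.56 and 1.23 on the log2 scale, whereas Cyp2c55 fell (-2.46). Cyp2c39 was called at -5.23, and this rested on F4MKO replicate 2, since the gene had 2.23, 177 and 2.04 CPM in F4MKO and 2.47, 1.39 and 0.888 CPM in F4MKO+FSTL1 livers, and the log2 fold change was -0.43 without that library. Cyp2b10, a target of the xenobiotic receptor CAR, had 1.2, 22.6 and 3.51 CPM against 0.84, 0.336 and 1.04 CPM (log2 fold change -3.61, SE 1.03, edgeR adjusted p = 0.0294). Its log2 fold change was -1.68 without F4MKO replicate 2, with no call, and none of the 3 fits without an F4MKO+FSTL1 library called it (adjusted p = 0.073, 0.11 and 0.059). CAR itself, encoded by Nr1i3, was called higher (log2 fold change 0.85, SE 0.23, edgeR adjusted p = 0.0219), and lost its call without F4MKO replicates 1 (0.75) or 2 (0.83) and without F4MKO+FSTL1 replicate 3 (0.76).

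Genes of bile acid handling were called in 5 of 25 cases, 4 higher and 1 lower, against a background of 14.6% called in either direction (3.20% higher, 11.4% lower), and the higher ones were 2 without F4MKO+FSTL1 replicate 2. Besides Cyp7b1 and Slco1a1, the uptake transporter Slc10a1 rose from 292, 334 and 356 CPM to 501, 547 and 582 CPM (log2 fold change 0.73, SE 0.14, edgeR adjusted p = 0.00521) and the bile acid ligase Slc27a5 by 0.60 on the log2 scale, a call that was lost without F4MKO replicate 1 (0.42) and without F4MKO+FSTL1 replicates 1 (0.57) or 2 (0.58). The efflux pump Abcc4 fell (log2 fold change -0.96, SE 0.25, edgeR adjusted p = 0.0204), and its call was lost without F4MKO replicate 2 (log2 fold change -0.63) and without F4MKO+FSTL1 replicates 1 (-0.91) or 2 (-0.93). Cyp7a1, the rate-limiting enzyme of bile acid synthesis, had 120.2, 178 and 243 CPM in F4MKO and 211, 143 and 104 CPM in F4MKO+FSTL1 livers, and the groups overlapped (-0.24, edgeR adjusted p = 0.743).

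Genes that run mitosis were mostly lower. Of 40 listed genes 39 were tested, and 37 were called lower and none higher, against a background of 11.4% called lower over all genes. The median log2 fold change was -2.23 over the 39 and -1.59 over the 26 whose testing did not depend on the F4MKO libraries alone. The genes are lowly expressed in liver, and 13 of the 37 passed the count filter through the F4MKO libraries alone, which required them to be lower in the other group. Of the 26 tested genes that did not depend on them in this way, 24 were called lower. Leaving out F4MKO replicates 1, 2 or 3 left 22, 22 and 23 members called, since genes read only in that group then missed the filter. Aurka (-0.54) and Mybl2 (-0.13) were tested and not called, and Kif11, with 37, 10 and 8 reads in F4MKO and 4, 1 and 4 reads in F4MKO+FSTL1 livers, was not tested. Summed over the 39 genes, the level was 166, 141 and 139 CPM in F4MKO and 43.5, 45.1 and 54.6 CPM in F4MKO+FSTL1 livers.

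Cdc20, which activates the anaphase-promoting complex (chr4:118432901-118437352 on the reverse strand, GRCm38), had 7.71, 5.61 and 6.51 CPM in F4MKO and 0.514, 0.624 and 0.731 CPM in F4MKO+FSTL1 livers (log2 fold change -3.40, SE 0.37, edgeR adjusted p = 0.000823). The 3 livers of each group lay close together, and the groups were several-fold apart. Mki67, the classical proliferation marker, had 12.5, 8.33 and 9.58 CPM against 1.63, 1.2 and 2.4 CPM (log2 fold change -2.54, SE 0.31, edgeR adjusted p = 0.00118). Top2a, the topoisomerase that untangles sister chromatids, had 7.15, 4.77 and 5.59 CPM against 1.21, 0.912 and 1.36 CPM (log2 fold change -2.33, SE 0.24, edgeR adjusted p = 0.000654). Foxm1, the transcription factor that drives the G2/M programme, had 3.89, 2.68 and 1.92 CPM against 0.654, 0.48 and 0.784 CPM (log2 fold change -2.15, SE 0.36, edgeR adjusted p = 0.00313). None of these 4 genes lost its call when any 1 library was left out. Knstrn, a kinetochore adaptor outside the list, was among the 12 largest falls (log2 fold change -2.94, SE 0.40, edgeR adjusted p = 0.00152).

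For the members with the largest fitted falls the reads themselves are given, since the F4MKO+FSTL1 libraries held only a few. Reads are not scaled for depth, which was lower in every F4MKO+FSTL1 library than in every F4MKO library. Hmmr, a spindle-associated hyaluronan receptor, had 140, 88 and 74 reads in F4MKO and 2, 2 and 8 reads in F4MKO+FSTL1 livers. Cdkn3, a phosphatase of the cell cycle kinases, had 108, 60 and 78 against 3, 2 and 5 reads. Bub1, a checkpoint kinase at the kinetochore, had 26, 28 and 20 against 0, 0 and 3 reads. The mitotic cyclin Ccnb1 had 106, 77 and 87 against 3, 5 and 4 reads, and 28.6% of its 100-base stretches are shared with pseudogenes. Each of these 4 genes was read at least 20 times in every F4MKO library and at most 8 times in every F4MKO+FSTL1 library, and when an F4MKO library was left out they no longer met the count filter. In WT livers the reads of Ccnb1 were 25, 56 and 43 and those of Hmmr 24, 72 and 45.

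The promoters of 5 mitotic genes are shown as a description. The motif shares given below were taken over the whole list and do not depend on the read counts. Cell cycle promoters are known for CCAAT boxes, which the factor NF-Y binds, and for the CHR element TTTGAA, through which the DREAM and MuvB complexes act. The 250 bases before the start of each gene were taken from RefSeq (GRCm38.p6) and searched on both strands, with CCAAT or its complement ATTGG and with TTTGAA or its complement TTCAAA. The 2 motifs do not overlap in the stretches printed, and matches are in capitals.
Hmmr, chr11:40733438-40733687, reverse strand: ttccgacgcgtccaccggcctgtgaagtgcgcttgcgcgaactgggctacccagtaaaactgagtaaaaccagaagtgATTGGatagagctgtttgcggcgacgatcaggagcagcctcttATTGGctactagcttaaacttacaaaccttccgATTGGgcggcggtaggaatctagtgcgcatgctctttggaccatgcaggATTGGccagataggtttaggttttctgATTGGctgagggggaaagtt
Cdkn3, chr14:46760291-46760540, forward strand: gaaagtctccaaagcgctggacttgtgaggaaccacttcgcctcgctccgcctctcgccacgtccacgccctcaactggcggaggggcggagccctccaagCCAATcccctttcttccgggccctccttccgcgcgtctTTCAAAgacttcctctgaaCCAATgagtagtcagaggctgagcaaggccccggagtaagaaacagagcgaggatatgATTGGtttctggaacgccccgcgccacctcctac
Bub1, chr2:127831860-127832109, reverse strand: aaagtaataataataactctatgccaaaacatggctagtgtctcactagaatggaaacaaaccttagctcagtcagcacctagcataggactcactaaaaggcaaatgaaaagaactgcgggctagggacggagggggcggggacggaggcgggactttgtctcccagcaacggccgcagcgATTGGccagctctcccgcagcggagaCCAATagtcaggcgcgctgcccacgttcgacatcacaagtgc
Ccnb1, chr13:100786487-100786736, reverse strand: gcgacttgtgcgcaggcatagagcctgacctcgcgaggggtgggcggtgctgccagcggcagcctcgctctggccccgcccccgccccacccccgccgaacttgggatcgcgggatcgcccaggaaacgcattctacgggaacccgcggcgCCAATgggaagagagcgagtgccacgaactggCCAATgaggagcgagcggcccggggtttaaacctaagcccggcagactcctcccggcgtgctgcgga
Cdc20, chr4:118437344-118437593, reverse strand: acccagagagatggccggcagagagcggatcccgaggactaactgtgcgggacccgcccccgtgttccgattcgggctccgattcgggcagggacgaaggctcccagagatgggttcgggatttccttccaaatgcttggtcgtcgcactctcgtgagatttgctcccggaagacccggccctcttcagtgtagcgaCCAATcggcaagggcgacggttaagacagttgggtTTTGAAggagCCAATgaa
All 5 stretches hold at least 2 matches to CCAAT in either orientation, with 5 in that of Hmmr, and those of Cdkn3 and Cdc20 hold a CHR. Promoters were found for 32 of the 40 mitotic genes, 33 stretches in all, of which 78.8% held CCAAT and 39.4% a CHR. For the DNA replication genes described next the shares were 68.8% and 15.6% of 32 stretches, and for all 32851 stretches in the table they were 33.8% and 16%. A match is a description of the letters and says nothing of binding in these livers.

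Genes of DNA replication and the G1/S transition showed both directions, and the difference between this list and the mitotic one was not tested. Of 37 tested, 9 were called lower and 2 higher, against 11.4% and 3.20% over all genes, with a median log2 fold change of -0.24. Of the 9, 1 passed the count filter through the F4MKO libraries alone. Cyclin D1, encoded by Ccnd1, links growth signals to the cell cycle and was among the 12 largest falls, with 61.7, 53.3 and 52.5 CPM in F4MKO and 9.57, 4.32 and 10.1 CPM in F4MKO+FSTL1 livers (log2 fold change -2.81, SE 0.29, edgeR adjusted p = 0.000679). Ccna2, the cyclin of S and G2 phase, had 5.02, 4.52 and 3.47 CPM against 0.84, 0.816 and 0.679 CPM (log2 fold change -2.47, SE 0.31, edgeR adjusted p = 0.00122). Gins2 (-2.20) and Uhrf1 (-1.66) also fell (Uhrf1 at -1.55 with an adjusted p of 0.0503 without F4MKO+FSTL1 replicate 2), and so did Mcm5 (-1.61) and Mcm6 (-1.43) of the replicative helicase. By contrast Mcm7 of the same helicase (-0.03), the clamp protein Pcna (0.03) and thymidylate synthase Tyms (-0.03) had log2 fold changes near 0 and were not called. Mcm10, a replication initiation factor, was higher in every F4MKO+FSTL1 liver, at 41.3, 31.3 and 33.6 CPM against 109, 143 and 70.6 CPM (log2 fold change 1.60, SE 0.21, edgeR adjusted p = 0.00138), and Tk1, the cytosolic thymidine kinase, rose by 0.89 (0.73 and not called without F4MKO replicate 1).

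**Figure D3:**
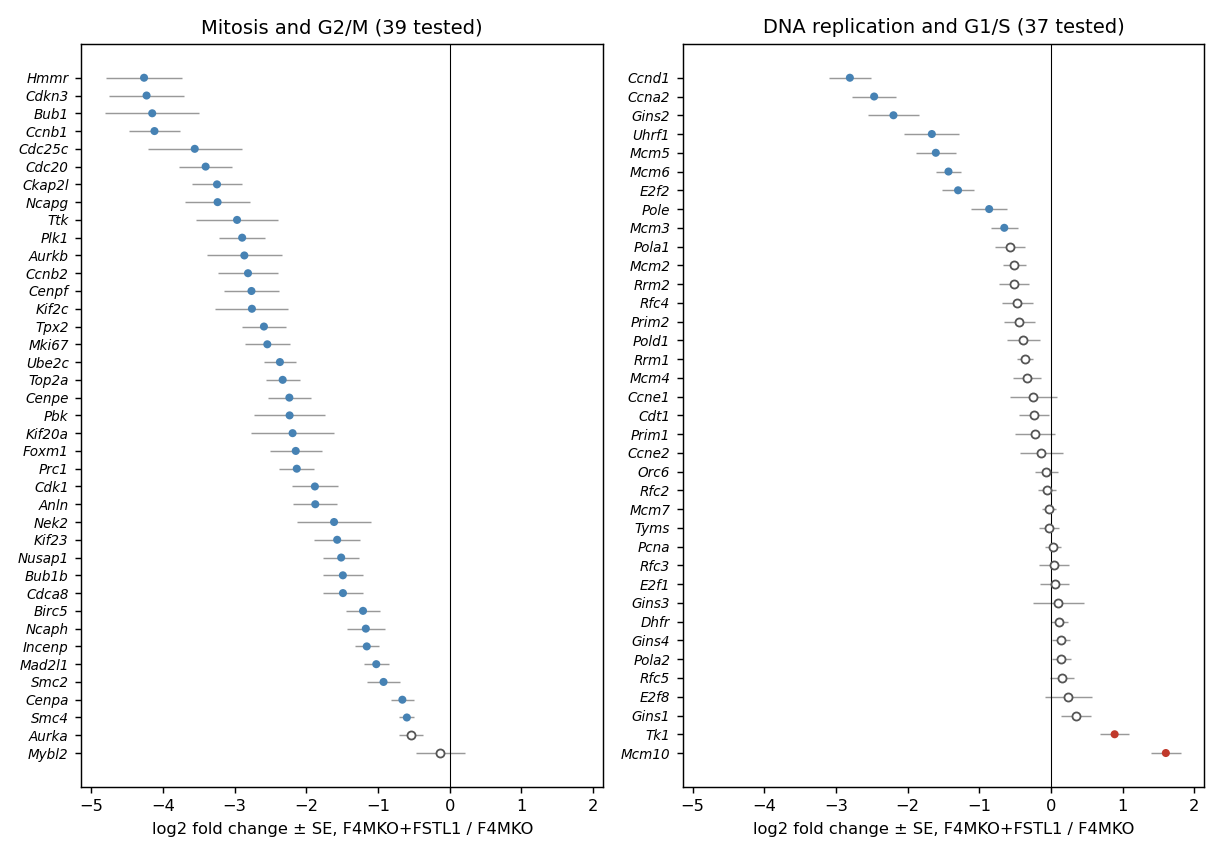
Log2 fold change with its standard error for each tested member of the mitosis and G2/M list (39 genes, left) and the DNA replication and G1/S list (37 genes, right), with filled points for called genes and open points for the rest. On the left 37 points are filled and all lie below 0, and on the right most points are open and close to 0.

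Most collagen chains tested were lower with FSTL1. The study reports the other direction by Sirius red staining and by QPCR of fibrosis genes, with more fibrosis in F4MKO+FSTL1 than in F4MKO livers. This difference was not tested. Of 21 collagen chains tested, 14 were called lower and 1 higher, against 11.4% and 3.20% over all genes, with a median log2 fold change of -1.05. Col1a1, the main chain of scar collagen (chr11:94936224-94953042, GRCm38), had 57.7, 33.9 and 27.6 CPM in F4MKO and 11.5, 7.2 and 6.32 CPM in F4MKO+FSTL1 livers (log2 fold change -2.25, SE 0.31, edgeR adjusted p = 0.00152). Col3a1 had 129, 88 and 78.3 CPM against 32.3, 21.8 and 20.6 CPM (log2 fold change -1.98, SE 0.21, edgeR adjusted p = 0.000756). The highest F4MKO+FSTL1 liver was below the lowest F4MKO liver for both chains, and WT livers had 15.7, 18.5 and 10.6 CPM of Col1a1, with replicate 3 inside the F4MKO+FSTL1 range and the other two between the groups. Col1a2 (-1.63), Col5a2 (-1.63), Col6a3 (-1.63) and Col4a4 (-1.82) fell too, and Col4a4 no longer met the filter when an F4MKO library was left out. The exception was Col27a1, which rose from 23.3, 14.5 and 21.1 CPM to 30.0, 49.2 and 35.9 CPM (log2 fold change 0.96, SE 0.22, edgeR adjusted p = 0.0101). Col18a1, the endostatin precursor that hepatocytes also make, had 655, 727 and 706 CPM against 809, 787 and 805 CPM and was not called (0.20).

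Other matrix proteins followed the collagens. Of 21 matrix glycoproteins and proteoglycans tested, 18 were called lower (11.4% over all genes) and none higher (median -1.01). Spp1 encodes osteopontin, a matrix cytokine made by ductular cells and scar-associated macrophages, and it had 397, 143 and 203 CPM in F4MKO and 45.5, 29.8 and 43.7 CPM in F4MKO+FSTL1 livers (log2 fold change -2.64, SE 0.35, edgeR adjusted p = 0.0014). Eln, the elastin gene, had 24.9, 15.7 and 9.62 CPM against 2.99, 2.79 and 3.97 CPM (log2 fold change -2.37, SE 0.32, edgeR adjusted p = 0.00147). F4MKO replicate 1 was the highest library for both, and the other two F4MKO livers were still well above every F4MKO+FSTL1 liver. Lum (-1.84), a collagen-binding proteoglycan, and Thbs1 (-1.65), an activator of latent TGF-beta, fell, and the call of Thbs1 was lost without F4MKO+FSTL1 replicate 2 (-1.46, adjusted p = 0.078). Fn1, fibronectin, which hepatocytes secrete into plasma, had 927, 894 and 799.8 CPM against 857, 801 and 842 CPM, and its groups overlapped (-0.07, edgeR adjusted p = 0.697).

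The enzymes that cut or cross-link matrix were lower too, with 15 of 23 tested called lower and none higher (median -1.10). Over all genes 11.4% were called lower and 3.20% higher. Mmp7, the matrilysin of ductular epithelium, had 306, 98 and 140 reads in F4MKO and 11, 3 and 10 reads in F4MKO+FSTL1 livers (log2 fold change -4.11, SE 0.57, edgeR adjusted p = 0.00152). Mmp12, the macrophage elastase, had 67.6, 46.6 and 32.2 CPM against 8.96, 8.6 and 12.8 CPM (log2 fold change -2.27, SE 0.34, edgeR adjusted p = 0.00194). Lox (-2.16), which cross-links collagen and elastin, fell, and so did Timp1 (-1.97), an inhibitor of matrix metalloproteinases. In the stellate cell list the counts were 5 lower and 1 higher of 17 tested (median -0.51, with 3 lower without F4MKO+FSTL1 replicate 2). The higher one was Tpm2, a tropomyosin, at 3.79, 6.49 and 4.87 CPM against 10.7, 8.4 and 7.78 CPM (log2 fold change 0.83, SE 0.26, edgeR adjusted p = 0.0424). Its call was lost in 5 of the 6 fits that left out 1 library and held only without F4MKO replicate 2, and it was also lost with the replicate number as a block (0.82, adjusted p = 0.0568). Pdgfra, a growth factor receptor of fibroblasts, had 21.4, 12.9 and 14.9 CPM against 6.63, 5.86 and 6.69 CPM (log2 fold change -1.36, SE 0.18, edgeR adjusted p = 0.00132), and Cygb, the globin of quiescent stellate cells, had 28.9, 16.3 and 25.7 CPM against 12.2, 11.1 and 11.5 CPM (log2 fold change -1.03, SE 0.18, edgeR adjusted p = 0.00336). Lrat (-0.80), which stores vitamin A in stellate cells, the receptor Pdgfrb (-0.88) and the hepatocyte growth factor Hgf (-1.10) fell, with Pdgfrb at -0.84 and an adjusted p of 0.0502 without F4MKO+FSTL1 replicate 2. The call of Hgf was lost in 4 of the 6 fits that left out 1 library, namely without F4MKO replicates 1 (-0.93) or 2 (-1.12) and without F4MKO+FSTL1 replicates 2 (-1.12) or 3 (-0.88). Acta2, the smooth muscle actin of activated stellate cells, overlapped between groups at 5.55, 7.91 and 4.95 CPM and 3.27, 2.16 and 5.95 CPM (-0.70, adjusted p = 0.144). The summed level of the 17 stellate cell genes was 389.9, 397 and 415 CPM in F4MKO and 389, 294 and 299 CPM in F4MKO+FSTL1 livers, and its part in the collagen result was not tested.

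Markers of bile duct-like cells were lower in the F4MKO+FSTL1 livers. Of 11 tested 8 were called lower (11.4% over all genes) and none higher (median -1.90). Of the 8, 1 passed the count filter through the F4MKO libraries alone. Epcam had 11.9, 5.99 and 6.51 CPM in F4MKO and 1.17, 1.2 and 1.72 CPM in F4MKO+FSTL1 livers (log2 fold change -2.58, SE 0.33, edgeR adjusted p = 0.00122), and the keratin Krt19 had 6.19, 3.47 and 4.83 CPM against 1.17, 1.39 and 1.41 CPM (log2 fold change -1.87, SE 0.24, edgeR adjusted p = 0.00122). The mucin Muc1 fell (-2.65), and Cldn4, a tight junction protein, had 73, 15 and 20 reads against 3, 3 and 3 reads. F4MKO replicate 1 was the highest library for Epcam, Krt19, Muc1 and Cldn4, and the summed level of the 11 genes was 486, 199 and 256 CPM in F4MKO and 85.9, 65.6 and 74.8 CPM in F4MKO+FSTL1 livers. Tspan8 (log2 fold change -3.09, SE 0.38, edgeR adjusted p = 0.00118) and Ly6d (log2 fold change -3.57, SE 0.31, edgeR adjusted p = 0.000346), a surface protein of injured hepatocytes and epithelium, were among the 12 largest falls, with 127, 75.5 and 68.3 CPM of Ly6d in F4MKO and 6.86, 4.8 and 11.2 CPM in F4MKO+FSTL1 livers. A list of fetal liver and liver cancer genes that shares Ly6d, Epcam and Prom1 had 9 of 16 tested called lower. Its members Cd24a (-2.43) and Golm1 (-1.80), a Golgi protein that rises in liver disease, fell, whereas Afp (-0.30) and Gpc3 (-0.51) were not called.

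Macrophage genes were lower, while 4 markers of resident Kupffer cells were not called. Of 20 macrophage markers 15 were called lower (11.4% over all genes) and none higher (median -0.99), and their summed level was 1288, 1306 and 1225 CPM in F4MKO and 701, 615 and 918 CPM in F4MKO+FSTL1 livers. Itgax, the integrin CD11c of recruited macrophages and dendritic cells, had 18.9, 9.84 and 9.34 CPM in F4MKO and 3.92, 2.26 and 2.56 CPM in F4MKO+FSTL1 livers (log2 fold change -2.12, SE 0.30, edgeR adjusted p = 0.00156). Ms4a7 had 7.29, 3.81 and 4.39 CPM against 1.45, 1.06 and 1.46 CPM (log2 fold change -1.97, SE 0.30, edgeR adjusted p = 0.00194), and Cx3cr1, the fractalkine receptor of monocytes, fell (-1.36). The pan-macrophage marker Adgre1, which encodes F4/80, was lower in every F4MKO+FSTL1 liver, at 25.2, 25.7 and 25.2 CPM against 12.9, 11.1 and 15.1 CPM (log2 fold change -0.96, SE 0.15, edgeR adjusted p = 0.00206). The Kupffer cell markers Clec4f (-0.29), Vsig4 (-0.41), Timd4 (0.51) and Marco (0.08) were not called, and their adjusted p-values in edgeR ran from 0.357 to 0.914. A miss of the threshold does not show that these genes were equal, and for Clec4f the values were 84.3, 124 and 113 CPM and 69.6, 76.3 and 117 CPM, with overlapping groups.

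The genes of lipid-associated macrophages, which gather in crown-like structures around fat-laden dying cells, had a median log2 fold change of -1.70. Of 14 tested 10 were called lower (11.4% over all genes), and the number was 10 in each fit that left out 1 library. Trem2, the lipid receptor that defines these cells, had 5.34, 3.68 and 1.32 CPM in F4MKO and 0.467, 0.912 and 0.522 CPM in F4MKO+FSTL1 livers (log2 fold change -2.44, SE 0.47, edgeR adjusted p = 0.00515). Gpnmb, a lysosomal glycoprotein, had 74.3, 71.9 and 35 CPM against 10.8, 8.98 and 8.98 CPM (log2 fold change -2.65, SE 0.31, edgeR adjusted p = 0.000977). The spread within the F4MKO group was wide for both, with replicate 3 lowest, and every F4MKO liver stayed above every F4MKO+FSTL1 liver. Lgals3 (-1.76) and Cd63 (-1.65) fell, and the lysosomal proteases Ctsb (-0.32) and Ctsd (-0.33), which most cells express, were not called. Lymphocyte markers did not pass, with 0 of 11 tested T and NK cell genes and 0 of 8 B cell genes called by edgeR. In sign, however, 10 of the T and NK cell genes were lower and 1 higher (median -0.46). Of the B cell genes 7 were lower and 1 higher (median -0.45). Over all genes 6878 of 14173 were lower. A miss of the threshold does not show that lymphocyte genes were equal. At an unadjusted p under 0.05, 3 T and NK cell genes were lower, and 1 B cell gene was higher and 1 lower, and DESeq2 called none of either list. Without F4MKO+FSTL1 replicate 3, however, 2 T and NK cell genes and 1 B cell gene were called lower, and 1 T and NK cell gene was called lower without F4MKO+FSTL1 replicate 1 and with no low-count filter. Cd3e, with 18, 12 and 9 reads in F4MKO and 2, 1 and 4 in F4MKO+FSTL1 livers, did not meet the count filter. Of 16 endothelial markers 1 was called, Cd34 (-1.25), while Pecam1 (0.01), Cdh5 (-0.12) and Stab2 (0.04) had overlapping groups, and the summed endothelial level was 442, 543 and 523 CPM against 553, 458 and 536 CPM. Of 3 tested neutrophil genes 1 was called lower, Csf3r (-1.03).

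**Figure D4:**
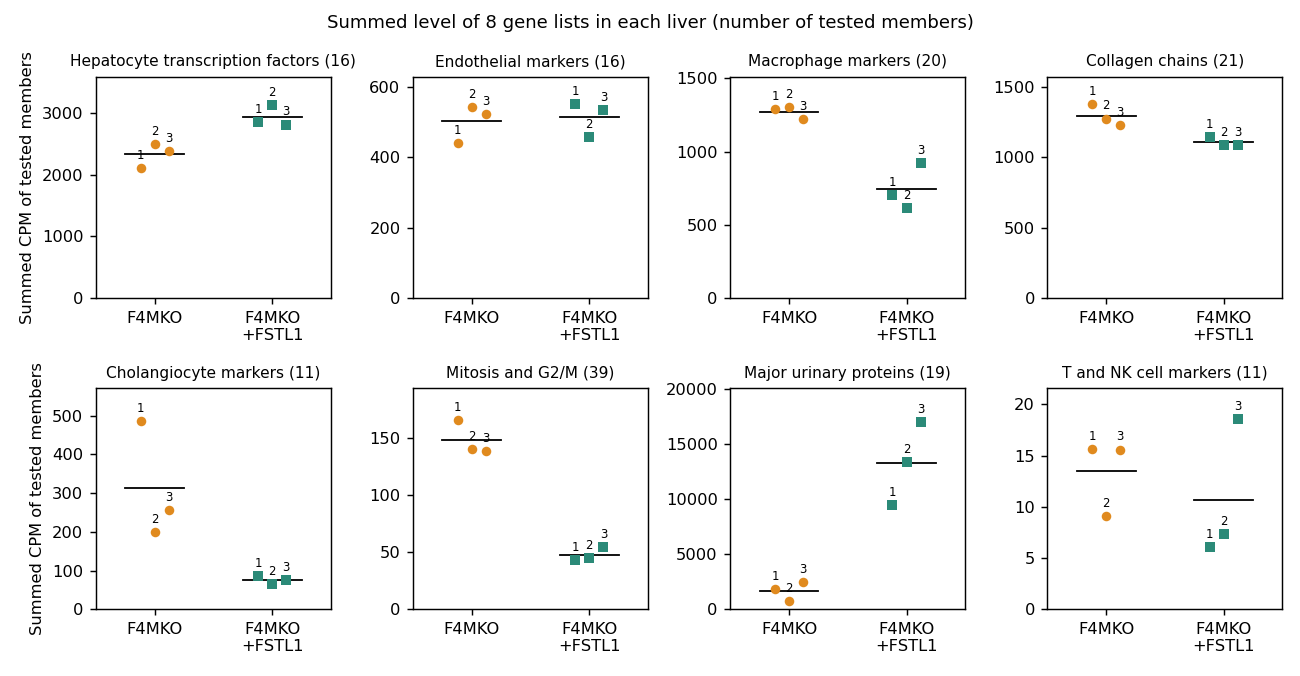
Summed CPM of the tested members of 8 gene lists in each liver, with numbers for the replicates and lines for the group means. The macrophage, cholangiocyte, mitosis and Mup sums do not overlap between groups, nor do the collagen and hepatocyte transcription factor sums, while the endothelial and T and NK cell sums overlap. The collagen sum includes Col18a1, which was not called and is its largest term.

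Signals between immune cells fell along with the macrophage genes. Of 27 chemokines and receptors tested, 16 were called lower (11.4% over all genes) and none higher (median -1.22), and 3 of these passed the count filter through the F4MKO libraries alone. Cx3cl1, the ligand of Cx3cr1, had 7.25, 2.76 and 3.27 CPM in F4MKO and 0.98, 1.34 and 1.15 CPM in F4MKO+FSTL1 livers (log2 fold change -1.94, SE 0.37, edgeR adjusted p = 0.00504). Ccl2, which recruits monocytes, had 6.12, 2.26 and 2.39 CPM against 1.17, 1.34 and 0.627 CPM (log2 fold change -1.77, SE 0.44, edgeR adjusted p = 0.0152). F4MKO replicate 1 was well above the other two of its group for both, and Ccl2 was not called without it (-1.15, adjusted p = 0.06). Ccl22 had 62, 18 and 50 against 8, 4 and 7 reads, and Ccl3 51, 23 and 24 against 8, 6 and 7 reads, the latter with an adjusted p of 0.0509 without F4MKO+FSTL1 replicate 2 (-1.75). Cxcl10 had 24.7, 6.03 and 6.75 CPM against 5.37, 4.71 and 5.22 CPM, a difference set mainly by F4MKO replicate 1, and was not called (edgeR adjusted p = 0.0736).

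Antigen presentation by MHC class II fell as well, with 5 of 8 tested genes called lower (11.4% over all genes) and none higher (median -1.22). Ciita, the master regulator of these genes, had 8, 5.78 and 4.63 CPM in F4MKO and 1.77, 1.06 and 2.3 CPM in F4MKO+FSTL1 livers (log2 fold change -1.85, SE 0.28, edgeR adjusted p = 0.00185). Cd74, the invariant chain and 1 of the 5 called genes that lost most CPM, had 457, 357 and 352 CPM against 162, 123 and 168 CPM (log2 fold change -1.37, SE 0.16, edgeR adjusted p = 0.00108). Ctss, the protease that trims the invariant chain, fell (-1.27), and H2-DMb1 had 17, 10 and 11 against 1, 5 and 2 reads and was called in 1 of 6 fits without a library, standing at -1.46 and -1.75 without F4MKO+FSTL1 replicates 1 and 3 and missing the count filter without any F4MKO library. Among interferon-stimulated genes 9 of 24 tested were called lower and none higher, and 5 without F4MKO+FSTL1 replicate 2. Ifi44 (-1.30) and Oas1a (-1.19) fell, with 11.3, 7.12 and 11.3 CPM against 3.92, 2.98 and 5.22 CPM for Ifi44. Mx1 (-1.32) and Usp18 (-1.04) fell, and both calls were lost without F4MKO replicate 1 (-1.25 and -1.03) or F4MKO+FSTL1 replicates 1 (-1.10 and -0.96) or 2 (-1.17 and -0.87), and that of Usp18 also without F4MKO replicate 3 (-0.90). Ly6e, an interferon-responsive surface protein, fell from 1009, 753 and 909 CPM to 344, 223 and 401 CPM (log2 fold change -1.46, SE 0.20, edgeR adjusted p = 0.00152). Of 22 genes of TNF, IL-1, TGF-beta and the inflammasome 10 were called lower and none higher, and 6 without F4MKO replicate 1 or F4MKO+FSTL1 replicate 2. Tgfb2, a TGF-beta ligand, had 3.43, 1.51 and 2.32 CPM against 0.514, 0.432 and 1.1 CPM (log2 fold change -1.84, SE 0.42, edgeR adjusted p = 0.0108), and its call was lost without F4MKO+FSTL1 replicate 2 (adjusted p = 0.051). Ltbp2 (-1.73) and Ltbp1 (-1.20), binding proteins of latent TGF-beta, fell (Ltbp1 was not called without F4MKO replicates 1 or 3, at -1.12 and -1.04, or F4MKO+FSTL1 replicate 2, at -0.94), as did the NF-kappa-B subunit Relb (-1.19). Tgfb1 (-0.54), Il1b (-0.64) and Nfkbia (0.01) were not called.

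**Figure D5:**
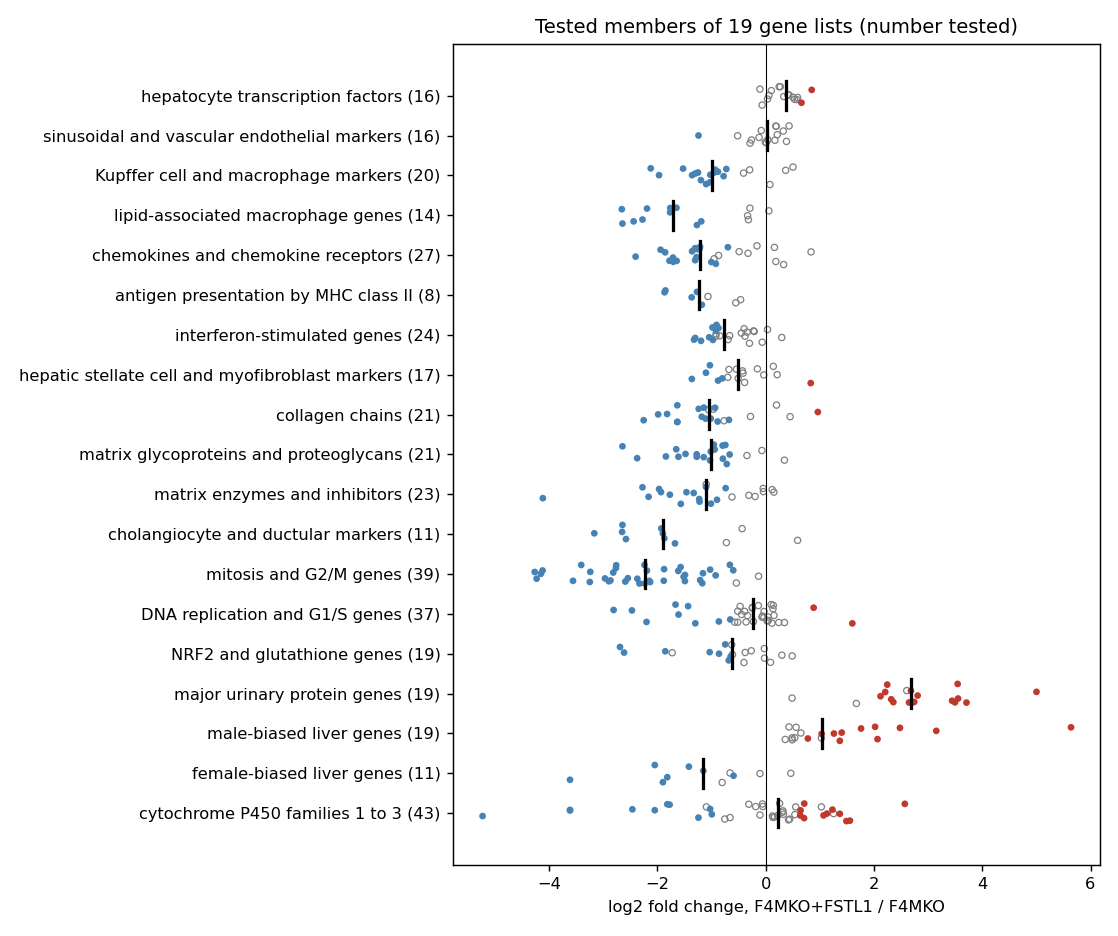
Log2 fold change of each tested member of 19 gene lists, with filled red points for genes called higher, filled blue points for genes called lower, open points for the rest and a black bar at the list median. Bars lie near 0 for the endothelial list (0.03), below -1.5 for the mitosis, cholangiocyte and lipid-associated macrophage lists, and above 1 for the Mup and male-biased lists.

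The hepatocyte identity genes that were called were higher. Over all genes 3.20% were called higher and 11.4% lower. Of 16 transcription factors 2 were called higher and none lower (median 0.37). Cebpa, which maintains the differentiated hepatocyte, had 281, 324 and 314 CPM in F4MKO and 454, 551 and 449.5 CPM in F4MKO+FSTL1 livers (log2 fold change 0.66, SE 0.14, edgeR adjusted p = 0.00812), and its fold change was under 1.5 without F4MKO+FSTL1 replicate 2 (0.55). Hnf4a had 490.0, 664 and 566 CPM against 539.6, 651 and 603 CPM, and its groups overlapped (0.06). Of 13 secreted or defining proteins 3 were called higher (5 without F4MKO replicate 3), all of them serine protease inhibitors. Serpina3k had 5519.6, 4031 and 5392 CPM against 10327, 10348 and 9728 CPM (log2 fold change 1.02, SE 0.17, edgeR adjusted p = 0.00259), and Serpina1c and Serpina1a rose by 1.21 and 0.68 (Serpina1a at 0.56, under the fold threshold, without F4MKO replicate 1), although these 2 share stretches with other antitrypsin genes. Apoa2, an apolipoprotein of HDL, was among the 5 genes that gained most CPM (log2 fold change 0.82, SE 0.16, edgeR adjusted p = 0.00516). Genes of the pericentral and periportal zones of the liver lobule were also counted. Of 18 pericentral genes 3 rose and 1 fell (1 rose without F4MKO replicate 2 or F4MKO+FSTL1 replicate 1), with Cyp2e1, Rhbg (0.90) and Oat (0.78) higher and Slc1a4 (-1.47) lower, with Rhbg called in 2 and Oat in 3 of the 6 fits without a library (ranges 0.65 to 1.10 and 0.38 to 0.96), and Glul, glutamine synthetase, was not called (0.46). In sign 13 of the 18 were higher, and without the fold threshold 7 passed as higher and 1 as lower. Their summed level was 8532, 9095 and 11614 CPM in F4MKO and 19623, 16345 and 16318 CPM in F4MKO+FSTL1 livers, so the groups did not overlap, and Cyp2e1 was its largest term. Of 20 periportal genes Cyp2f2 rose (0.65, but 0.46 and 0.56 and not called without F4MKO replicate 1 or F4MKO+FSTL1 replicate 2), Cdh1 fell (-1.13), and the urea cycle enzymes Cps1 (-0.14), Ass1 (-0.19) and Asl (0.41) were not called. The periportal sum overlapped between groups, at 9361, 14683 and 13295 CPM and 14938, 13224 and 14917 CPM.

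Genes of lipid metabolism were called in both directions, and over all genes 3.20% were called higher and 11.4% lower. Of 23 genes of fat synthesis 1 was called, fatty acid synthase Fasn, which fell from 516, 494 and 323 CPM to 312, 226 and 195 CPM (log2 fold change -0.86, SE 0.20, edgeR adjusted p = 0.0126), a call lost without F4MKO replicate 1 (-0.75) or F4MKO+FSTL1 replicate 2 (-0.81). Acly (-0.41) and Acaca (-0.49), the steps before it, had adjusted p-values of 0.0275 and 0.0172 in edgeR but fold changes under 1.5, and Scd1 (-0.26) and Srebf1 (0.16) were not called. By QPCR the study instead reports lipogenic genes restored in F4MKO+FSTL1 livers. Among genes of fatty acid oxidation, Fabp1 (0.66), a fatty acid carrier of hepatocytes, was called higher, and it lost its call without F4MKO replicates 1 (0.59) or 2 (0.58) or F4MKO+FSTL1 replicate 2 (0.59). Pdk4, the kinase that shuts off pyruvate oxidation, fell from 10.2, 17.8 and 11.5 CPM to 3.92, 3.7 and 5.22 CPM (log2 fold change -1.62, SE 0.24, edgeR adjusted p = 0.00189). Among 21 lipid droplet and lipase genes 4 were higher and 2 lower, and the higher ones were 2 without F4MKO replicates 2 or 3 or F4MKO+FSTL1 replicates 1 or 2. Fitm1, which buds lipid droplets, rose from 8.14, 7.62 and 10.2 CPM to 30.7, 23.7 and 19.6 CPM (log2 fold change 1.51, SE 0.24, edgeR adjusted p = 0.0024), and hormone-sensitive lipase Lipe from 8.63, 13.1 and 13.4 CPM to 22.9, 18.3 and 21.8 CPM (log2 fold change 0.85, SE 0.16, edgeR adjusted p = 0.00504). Lipoprotein lipase Lpl fell from 176, 209 and 173 CPM to 46.2, 55.9 and 62.6 CPM (log2 fold change -1.76, SE 0.22, edgeR adjusted p = 0.00118), as did the fatty acid transporter Cd36 (-0.72). Cidea, a droplet fusion protein, was called with overlapping groups at 1.06, 0.293 and 0.559 CPM and 6.07, 2.93 and 0.888 CPM, and F4MKO+FSTL1 replicate 3 was the low one. Its call held in 2 of 6 fits without a library (log2 fold change 1.56 to 2.93). G0s2, an inhibitor of the lipase ATGL, was called at 1.25 and lost the call in 5 of 6 fits without a library (0.76 without F4MKO+FSTL1 replicate 2). Cholesterol synthesis gave 3 calls among 25 genes (14.6% over all genes), Tm7sf2 (0.80) and Stard4 (0.68, with a call in 2 of 6 fits without a library and a range of 0.46 to 0.89) higher and Sqle, the squalene epoxidase, lower (-0.79). The number called lower was 3 without F4MKO+FSTL1 replicate 1.

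Of 11 fat cell markers 6 were tested, and 4 were called higher (3.20% over all genes), with a summed level of 969, 1583 and 2004 CPM in F4MKO and 3426, 3161 and 3047 CPM in F4MKO+FSTL1 livers. The largest term of this sum was Car3, which hepatocytes also express. Cfd and Fabp4 reached at most 65.3 and 23.2 CPM, so the sum is not a measure of fat cell RNA. Cfd encodes adipsin, a complement protease known from adipocytes, and it had 10, 2 and 10 reads in F4MKO and 1399, 882 and 89 reads in F4MKO+FSTL1 livers (log2 fold change 7.02, SE 1.10, edgeR adjusted p = 0.00217). The F4MKO+FSTL1 livers themselves differed more than 10-fold, with replicate 3 at 4.65 CPM against 65.3 and 42.4 CPM. Adipoq and Plin1 had at most 2 reads per library, Lep had 1 read in all 6 libraries, and the groups overlapped for Fabp4 (14.4, 23.2 and 22.4 CPM and 22, 13.9 and 20.4 CPM, -0.09). Car3 (1.14), a carbonic anhydrase of male hepatocytes, muscle and fat, and Adrb3 (0.80) were called higher, the latter with overlapping groups and a call in 2 of 6 fits without a library (0.65 to 1.02).

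Genes of glutathione and oxidative defence were partly lower, with 8 of 19 tested called lower (11.4% over all genes) and none higher, and 5 lower without F4MKO+FSTL1 replicate 2. Gstm3 had 464, 625 and 367 CPM in F4MKO and 133, 35.2 and 57.3 CPM in F4MKO+FSTL1 livers (log2 fold change -2.69, SE 0.41, edgeR adjusted p = 0.00194), and Gstm1 had 2494, 2733 and 3008 CPM against 1981, 1225 and 1704 CPM (log2 fold change -0.75, SE 0.19, edgeR adjusted p = 0.0181), though its adjusted p was 0.072 without F4MKO+FSTL1 replicate 2. Gsta1 (-2.61) and Gm3776 (-3.09), which share most of their sequence, fell as well, as did Gsta4 (-1.03). The NRF2 target Nqo1 (-0.63) and the glutathione synthesis genes Gclc (-0.02) and Gclm (0.09) were not called. Cytoskeletal genes that rise in injured hepatocytes were lower in 12 of 21 cases and higher in none (median -0.93). S100a11, a calcium-binding protein, had 81.9, 59.5 and 70.7 CPM against 20.03, 15.8 and 21.3 CPM (log2 fold change -1.89, SE 0.18, edgeR adjusted p = 0.000363), and Anxa2, an annexin, 91.1, 69.4 and 64.4 CPM against 35.9, 14.8 and 17.2 CPM (log2 fold change -1.72, SE 0.29, edgeR adjusted p = 0.003). The tubulins Tubb2b (-1.85) and Tubb2a (-1.65) fell. Of 20 genes of ER stress and the integrated stress response 1 was called, Atf3, which fell from 16.1, 8.71 and 7.1 CPM to 2.75, 1.82 and 2.72 CPM (log2 fold change -2.13, SE 0.29, edgeR adjusted p = 0.00152), while the chaperone Hspa5 (0.06) was not. Of 20 acute phase genes Lcn2 (-1.46) and Orm2 (-1.0, and -0.88 with no call without F4MKO replicate 1) fell, Saa4 rose (0.86), and Saa1 (-0.43) and Hp (-0.04) were not called. The ER stress and acute phase counts were near or below the shares over all genes, 11.4% lower and 3.20% higher.

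Among the other leading falls, Shc2, an adaptor of receptor tyrosine kinases, had 14.8, 8.91 and 7.54 CPM in F4MKO and 0.56, 0.336 and 1.31 CPM in F4MKO+FSTL1 livers (log2 fold change -3.85, SE 0.44, edgeR adjusted p = 0.000977). Ccdc120, a centriolar protein, had 17.4, 16.1 and 14.7 CPM against 2.15, 1.44 and 2.14 CPM (log2 fold change -3.07, SE 0.29, edgeR adjusted p = 0.000363). Scara3, a scavenger receptor-like protein, had 26.3, 10.4 and 13.7 CPM against 2.57, 2.06 and 2.25 CPM (log2 fold change -2.87, SE 0.35, edgeR adjusted p = 0.00113). All 3 were apart between groups in every liver and kept their call without any 1 library. Among the other leading rises, Clec2h, a lectin-like ligand of NK receptors, had 1.59, 0.502 and 1.56 CPM against 11.9, 12.1 and 5.17 CPM (log2 fold change 2.98, SE 0.40, edgeR adjusted p = 0.00146), and the predicted genes Gm31583 and Gm35696 rose by 2.80 and 2.85.

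The reported receptors of FSTL1 were measured in the same livers. Of 10 genes tested, counting Fstl1 itself, 3 were called lower and none higher, against 11.4% and 3.20% over all genes. Fstl1 was among the 3, beside Cd14 and Tlr4. The list does not hold every candidate of the study, whose primers also cover Fzd4. Cd14, a co-receptor of lipopolysaccharide on macrophages and hepatocytes, had 14.8, 10.8 and 11.7 CPM in F4MKO and 3.73, 2.74 and 6.58 CPM in F4MKO+FSTL1 livers (log2 fold change -1.52, SE 0.27, edgeR adjusted p = 0.00346). Tlr4, its signalling partner, had 4.99, 4.23 and 4.63 CPM against 2.85, 2.35 and 3.19 CPM (log2 fold change -0.73, SE 0.19, edgeR adjusted p = 0.0202), and its call was lost without F4MKO replicate 1 (-0.68) and without F4MKO+FSTL1 replicate 2 (-0.62). Dip2a had 6.16, 5.9 and 4.63 CPM against 2.89, 4.13 and 3.34 CPM, with groups apart and an edgeR adjusted p of 0.0596 (log2 fold change -0.69, SE 0.24), so it missed the threshold in this fit. It was called by DESeq2 (-0.67), in the blocked fit (-0.71), in a fit of the 6 libraries alone (-0.69) and with no low-count filter (-0.68), each of which called 4 of the 10 genes, and the count was 2 without F4MKO replicate 1 or F4MKO+FSTL1 replicate 2. Tgfbr2 was lower by less than the fold threshold (-0.48, adjusted p = 0.0217). Tgfbr1 (-0.27), Eng (0.00), Acvr1 (-0.09), Bmpr1a (-0.05) and Bmpr2 (0.13) were not called, and Bmpr1b and Alk had too few reads. Cd14 is also a macrophage marker, and the macrophage markers that moved beside it are given above.

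Several housekeeping lists held no called gene. None of 48 ribosomal protein genes, 63 nuclear respiratory-chain genes and 13 mitochondrially encoded genes was called by edgeR, with medians of 0.21, 0.33 and 0.23. All 63 respiratory-chain genes had log2 fold changes above 0, and 10 of them were called higher without F4MKO replicate 3 and 2 without F4MKO+FSTL1 replicate 1. At an unadjusted p under 0.05, 3 ribosomal, 42 respiratory-chain and 5 mitochondrially encoded genes were higher and none lower, and DESeq2 called 1 respiratory-chain gene and none of the others, as did the fit with the replicate number as a block for the respiratory chain. Rpl3 (-0.09) and the mitochondrial ND1 (0.02) had overlapping groups. Of 16 circadian clock genes 6 were called higher and 2 lower, against 3.20% and 11.4% over all genes. The higher ones were 2 or 3 without F4MKO replicates 1 or 2 or F4MKO+FSTL1 replicates 1 or 2. Npas2 (-2.05) and Arntl (-1.71) were down and Dbp (1.28) and Per3 (1.12) up. Of these only Arntl kept its call in each fit without a library, while Npas2 stood at -1.69 without F4MKO replicate 1 and Dbp and Per3 were called in 2 and 1 of the 6. The hour of collection is not given for the groups, and its part in these values was not tested. Of 5 erythroid genes tested Alas2, the first enzyme of haem synthesis, was called higher (0.62, and 0.49, under the fold threshold, without F4MKO replicate 1), and the globin gene Hba-a1 was not (0.51).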

How the data were processed

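Total liver RNA was sequenced as 150 bp paired-end reads. The authors trimmed reads with Trim Galore 0.6.7, aligned them to mm10 with HISAT2 2.2.1 and counted them per gene with featureCounts 2.0.1, per the labels and the study's methods. The deposited table holds these raw counts. The annotation and the handling of strand and of reads that match several genes are not given in the sources used here.

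Groups were taken from the sample labels. Genes with at least 10 counts in at least 3 of the 6 libraries compared were kept. All 9 libraries were fitted by edgeR 4.0.16 (R 4.3.3, limma 3.58.1) with TMM factors and the quasi-likelihood test, and p-values were adjusted over all tested genes by Benjamini-Hochberg. Called genes had an adjusted p under 0.05 and a fold change over 1.5. Standard errors were the log2 fold change divided by the square root of F. CPM were computed on TMM-scaled library sizes. Genes with at most 3 counts in each library of a group are given by their reads. The depth of 20656976 to 24322984 reads per library limits the precision of genes with few reads, and counting error is not separated from the spread between livers. Scripts were tested on simulated data. Tables and plots were made with Python 3.11.15, pandas 2.3.3 and matplotlib 3.10.9. Positions come from GENCODE vM21 and promoters from RefSeq, both GRCm38.

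Named genes were the 12 largest rises and falls among called genes with groups apart, more than 3 counts in every library and a mean of at least 5 CPM in the higher group, the 5 called genes per direction with the largest CPM difference, the 4 called members of each list with the largest change (or its first 3 tested members where fewer than 3 were called), Fstl1, Irf4 and the receptors, and members needed to account for a list. The comparison and the lists were chosen with earlier results of these data known. The alternatives were DESeq2 1.42.0, its size factors in edgeR, other filters, only the 6 libraries, the replicate number as a block, no fold threshold, a test against a fold of 1.5, and leaving out each library. The full account of the fatty acid oxidation list is not reported here.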

Additional observations from a re-analysis of the deposited data

How the results depend on the processing

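The calls depended on single libraries and on few reads. The number of genes called (2075, with 454 higher and 1621 lower) ranged from 1164 to 2020 (259 to 538 higher, 905 to 1572 lower) when 1 library was left out, lowest without F4MKO replicate 1. A test against a fold change of 1.5 called 628 genes (101 higher, 527 lower) and 152 list members in place of 292, and dropping the fold threshold gave 1110 higher genes. DESeq2 called 2127 genes, its size factors in edgeR 2084, no low-count filter 2397, a filter on total counts 2068 and the 6 libraries alone 1935, all within 1.5 times. The causes of these differences were not tested, except that the test against a fold and the absent threshold change the rule itself. The correlation of deviations from the group means was 0.115, 0.0954 and 0.316 for libraries with the same replicate number, so the numbers were not taken to pair the livers, although each library correlated best with its own number, a hint from the data and not the design. With the replicate number as a block 2165 genes were called (484 higher, 1681 lower), Cyp2c39, H2-DMb1 and Tpm2 lost their calls and Dip2a (-0.71), Mup5 and Cxcl10 gained one. Dip2a was also called by DESeq2 (-0.67). Of 243 named genes DESeq2 left 238 with the same direction and call and the block 236. Direction turned in genes that were not called. The log2 fold change of Eng was 0.012 in DESeq2, 0.01194 with its size factors and 0.00348 without the filter, and the log2 fold change of Marco was -0.073 under the block. With 1 library left out it ran, per gene, as follows: Hnf4a -0.054 to 0.16, Cd4 -0.62 to 0.75, Cd79b -1.27 to 0.27, Pecam1 -0.15 to 0.11, Cdh5 -0.26 to 0.0013, Hba-a2 -0.38 to 0.77, Hbb-bs -0.053 to 0.56, Acacb -0.23 to 0.074, Cps1 -0.53 to 0.37, ND1 -0.10 to 0.14, ND2 -0.0053 to 0.24, Hspa5 -0.12 to 0.17, Dnajb9 -0.029 to 0.12, Rpl3 -0.24 to 0.0037, Irf4 -1.02 to 0.087, Eng -0.092 to 0.073, Acvr1 -0.21 to 0.049, Marco -0.41 to 0.36, Stab2 -0.045 to 0.0899, Nfkbia -0.076 to 0.098, Pcna -0.028 to 0.12, Mybl2 -0.43 to 0.042, Fabp4 -0.29 to 0.078, Gclm -0.041 to 0.17, Cyp7a1 -0.55 to 0.024, Tyms -0.15 to 0.038, Alb -0.26 to 0.022, Mcm7 -0.072 to 0.0301, Hp -0.14 to 0.069 and Gclc -0.19 to 0.078.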
